A study of Sus scrofa with 4 samples.

Results

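The airway basal and secretory cell genes were described in lung cells of pigs sorted by an LGR5 reporter. They were chosen by name, not by their values: the basal cell genes KRT5, KRT15 and TP63, the secretoglobins SCGB1A1, SCGB3A1 and SCGB3A2, the gel-forming mucins MUC5B and MUC5AC, and the secreted proteins BPIFA1 and BPIFB1. Of these 10 genes, 8 were matched by symbol to a row of the count tables, which hold 29263 genes, and are described below. MUC5B and MUC5AC were not analysed here. All 8 passed the filter on low counts.

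The pigs were LGR5-H2B-GFP knock-in animals: a green fluorescent histone reports transcription of LGR5, a receptor for the Wnt-amplifying R-spondins. Lung tissue was digested with enzymes, dead cells were excluded, and cells were sorted by GFP into GFP-HI (high fluorescence) and GFP-NEG (negative), both from knock-in lung, with no further treatment named. Each fraction was sequenced in 2 biological replicates, so 2 libraries stand in each group. The labels give neither the animals' age for a library nor whether the EPCAM and NGFR antibodies of the protocol were used for gating. The name of the deposited comparison table contains the words adult pig. GFP-NEG is defined by the absence of GFP alone, as far as the labels say.

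Basal cells are the stem cells of the conducting airway: they sit on the basement membrane, express the transcription factor p63 (TP63) and the keratins 5 and 15, and give rise to secretory and ciliated cells. Secretory cells face the lumen. Club cells release secretoglobins, goblet and gland cells release mucins, and BPI-fold proteins such as BPIFA1 and BPIFB1 are part of the antimicrobial and surface-active lining fluid.

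The GFP-NEG libraries held 6292253 and 7045652 counts and the GFP-HI libraries 24200550 and 24689986, so 1 count was worth 0.110 to 0.155 CPM in GFP-NEG and about 0.0453 to 0.0496 CPM in GFP-HI. CPM are counts scaled to a common library size after TMM scaling. A count was found for 18752 and 18392 genes in GFP-HI against 24120 and 25985 in the shallower GFP-NEG libraries. Some genes with 0 counts in both GFP-HI libraries stood at a few CPM in GFP-NEG. APOA2, picked after its values were seen, was among them, at 3.88 and 7.13 CPM in GFP-NEG. How far this broad low signal enters the low-count genes below was not tested. LGR5 itself was at 146 and 152 CPM in GFP-HI against 1.55 and 0.767 CPM in GFP-NEG, in the direction of the labels. Of the fibroblast genes 5 of 8 tested passed as higher in GFP-HI, beside 8.35% of all tested genes. Of the immune genes 8 of 9 and of the endothelial genes 6 of 6 passed as lower, beside 27.6% of all tested genes. Leaving out GFP-NEG replicate 2 left 1 fibroblast gene called, leaving out GFP-HI replicate 2 left 3, and leaving out GFP-NEG replicate 1 left 3 endothelial genes called. The 8 airway genes together took 0.0207% and 0.0365% of the GFP-HI counts, against 0.0988% and 0.0353% of the GFP-NEG counts, so they were a small part of every library. In sorted bulk samples, fewer cells of a type and less RNA per cell cannot be told apart.

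The basal genes KRT5 and TP63 were 6.17-fold and 14.9-fold lower in GFP-HI than in GFP-NEG, and they passed the test (edgeR quasi-likelihood, Benjamini-Hochberg adjusted p under 0.05 over all 19682 tested genes). KRT15 was 6.40-fold lower but did not pass. The 5 secretory genes did not pass. After TMM scaling, 4 of them stood lower in GFP-HI in replicate 1 and higher in GFP-HI in replicate 2. With library totals alone, 2 did. The 2 calls among 8 genes stand beside 27.6% of all tested genes called lower in GFP-HI and 8.35% called higher, so the share of airway genes called is close to that of the whole table. With the replicate as a block the same 2 genes were called, beside 24.4% of all tested genes called lower. The median log2 fold change was -1.31 over the 8 genes and -0.25 over all tested genes. Single libraries moved the median of the 8 genes: it was -0.66 without GFP-HI replicate 1, -0.60 without GFP-NEG replicate 1, and -2.28 when GFP-HI replicate 2 was left out.

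**Figure D1:**
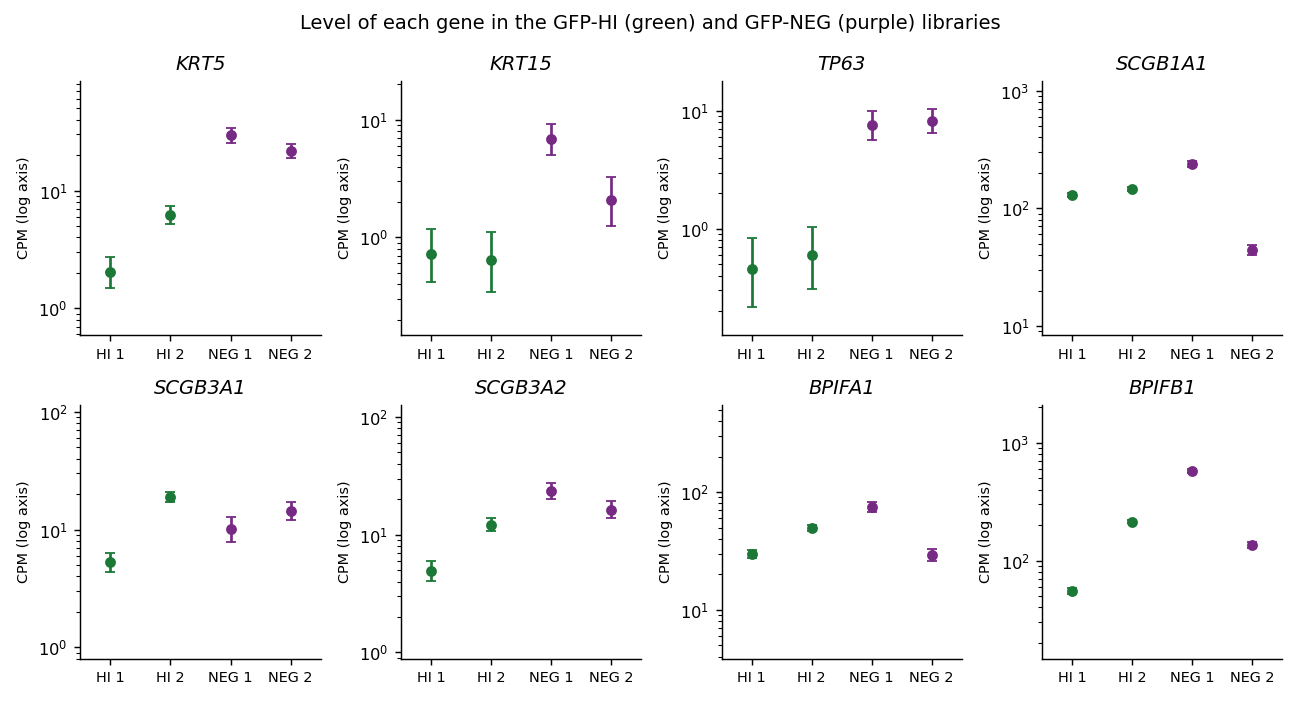
CPM (log axis, each panel spanning the same number of decades) of the 8 genes in the 4 libraries, with exact Poisson 95% intervals that cover counting error only; green points are GFP-HI, purple points GFP-NEG, each labelled with its replicate number. The 3 basal genes and SCGB3A2 are lower in both GFP-HI libraries than in both GFP-NEG libraries, and the other 4 genes overlap.

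TP63, the transcription factor that maintains basal cells, counted 10 and 12 in the GFP-HI libraries against 49 and 75 in the shallower GFP-NEG libraries. As levels these are 0.453 CPM (95% counting interval 0.217 to 0.833) and 0.595 CPM (0.307 to 1.04) against 7.61 CPM (5.63 to 10.1) and 8.22 CPM (6.47 to 10.3). Both GFP-HI libraries were low and both GFP-NEG libraries high, and the replicates of each group lay within each other's counting intervals. The group means were 0.524 ± 0.100 CPM and 7.92 ± 0.434 CPM (SD, n = 2 in each). The log2 fold change was -3.90 (SE 1.07, adjusted p of 0.0014, edgeR). Within replicate 1 the log2 difference was -4.07 (counting interval -5.22 to -3.07), and within replicate 2 it was -3.79 (-4.80 to -2.90). TP63 was thus the gene of the 8 whose difference was most alike in both replicates.

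KRT5, the keratin that forms the basal cell cytoskeleton, counted 45 and 126 in GFP-HI against 190 and 198 in GFP-NEG. Its levels were 2.04 and 6.25 CPM against 29.5 and 21.7 CPM. The groups did not overlap, but the GFP-HI libraries differed from each other by 1.62 on the log2 scale, more than the GFP-NEG libraries. The log2 fold change was -2.63 (SE 0.63, adjusted p of 2.2e-04, edgeR). The difference was -3.85 within replicate 1 and -1.80 within replicate 2. Its size depended on the GFP-HI libraries: it was -1.97 without GFP-HI replicate 1 and -3.62 without GFP-HI replicate 2, and the adjusted p stayed at or under 0.039 without any 1 library.

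KRT15, a further basal keratin, had few counts in every library, with 16 and 13 in GFP-HI against 44 and 19 in GFP-NEG. These are 0.725 and 0.645 CPM against 6.83 and 2.08 CPM. The GFP-HI libraries were alike, and GFP-NEG replicate 2 stood at -1.71 on the log2 scale relative to replicate 1. DESeq2 gave KRT15 an adjusted p of 0.031, and of 0.27 with the replicate block. In edgeR the log2 fold change was -2.68 (SE 1.20, adjusted p of 0.067), so the call depended on the test and on the model. The value was -1.59 without GFP-NEG replicate 1 and -3.30 (adjusted p of 0.036, edgeR) without GFP-NEG replicate 2.

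The authors' deposited table gives log2 fold changes of -3.93, -2.63 and -2.70 for TP63, KRT5 and KRT15. Its adjusted p-values are 2.5e-04, 0.0017 and 0.0502, so KRT15 does not pass there at 0.05. At the same threshold, the authors' deposited table calls 11.2% of its genes lower in GFP-positive cells. For the 5 secretory genes the authors' deposited table gives adjusted p-values from 0.13 (BPIFB1) to 0.98 (SCGB3A1).

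**Figure D2:**
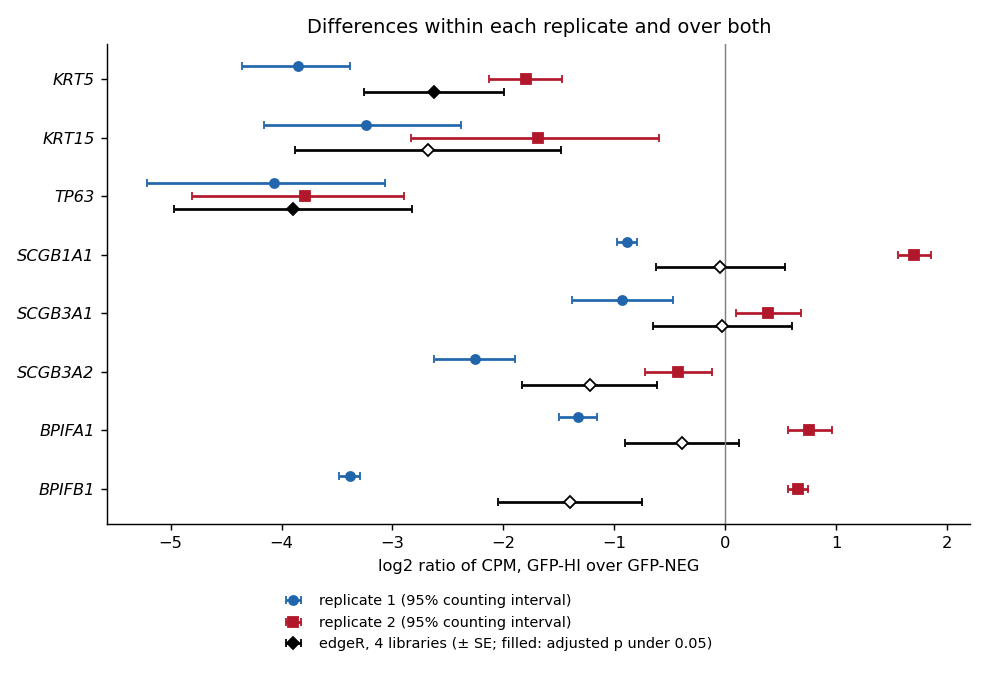
Log2 ratio of CPM, GFP-HI over GFP-NEG, for each gene within replicate 1 (blue circles) and within replicate 2 (red squares) with exact conditional binomial 95% intervals for counting error only, and the edgeR log2 fold change over the 4 libraries (black diamonds, ± SE, filled where the adjusted p is under 0.05). The basal genes lie below 0 in both replicates, and SCGB1A1, SCGB3A1, BPIFA1 and BPIFB1 lie on opposite sides of 0.

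All 8 genes were lower in GFP-HI within replicate 1, and 4 of 8 were lower within replicate 2. The median difference over all tested genes was -0.18 in replicate 1 and -0.36 in replicate 2. The 4 genes that were lower in both replicates were KRT5, KRT15, TP63 and SCGB3A2, and 46.5% of all tested genes were lower in both. For the same 4 genes the groups did not overlap, and with library totals alone those of BPIFB1 did not either. Of all tested genes, 42.0% had GFP-HI fully below GFP-NEG, 27.7% had GFP-HI fully above, and 69.7% did not overlap in either direction. After TMM scaling, each of the 16 within-replicate differences had a counting interval that left out 0. The opposite signs of 4 genes were thus larger than counting error under that scaling. Scaled by library totals alone, 13 of 16 intervals left out 0. Those of SCGB3A1, BPIFA1 and BPIFB1 in replicate 2 held 0. With these totals 6 of 8 genes were lower in both replicates, with SCGB1A1 and BPIFA1 as the exceptions. This is a difference between pairs of libraries, with 1 library of each group in a replicate, and it carries no test.

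SCGB1A1, the club cell secretoglobin, showed the replicate difference most plainly among the secretoglobins. It counted 2842 and 2924 in GFP-HI against 1531 and 406 in GFP-NEG. Its levels were 129 and 145 CPM against 238 and 44.5 CPM. Both GFP-HI libraries lay between the GFP-NEG libraries, of which replicate 2 stood at -2.42 on the log2 scale relative to replicate 1. GFP-HI was 1.85-fold lower in replicate 1 and 3.26-fold higher in replicate 2. Over the 4 libraries the log2 fold change was -0.043 (SE 0.58, adjusted p of 0.97, edgeR), with an interval of -1.18 to 1.09 that still allows a 2-fold change in either direction. With the replicate as a block the value was 0.41, and it was 1.62 without GFP-NEG replicate 1 (adjusted p of 0.67 and 0.13).

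SCGB3A1, a secretoglobin of larger airways and glands, was at 5.30 and 18.9 CPM in GFP-HI (117 and 381 counts) and at 10.1 and 14.5 CPM in GFP-NEG (65 and 132 counts). Here the GFP-HI libraries held both the lowest and the highest value. The log2 fold change was -0.025 (SE 0.62, interval -1.25 to 1.20, adjusted p of 0.98, edgeR). The difference was -0.93 within replicate 1 and 0.38 within replicate 2, and the latter turned to -0.29 when scaled by library totals alone.

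SCGB3A2, a secretoglobin of the small airways, was the secretory gene whose groups did not overlap (with library totals alone, also BPIFB1). It was at 4.94 and 12.2 CPM in GFP-HI (109 and 245 counts) and at 23.6 and 16.3 CPM in GFP-NEG (152 and 149 counts). It was 4.78-fold lower in GFP-HI in replicate 1 and 1.34-fold lower in replicate 2. Its log2 fold change of -1.22 (SE 0.61) did not pass the threshold (adjusted p of 0.11, edgeR), and was at -0.65 without GFP-HI replicate 1 and -1.98 without GFP-HI replicate 2. It passed under scaling by library totals alone (-1.66, adjusted p of 0.031) and under upper-quartile scaling (-1.53, adjusted p of 0.042).

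BPIFA1 and BPIFB1 are neighbours in the RefSeq annotation of the pig assembly Sscrofa11.1, with 0 other genes starting between them, within a cluster of genes of the BPI fold. BPIFA1 was at 29.8 and 49.5 CPM in GFP-HI (657 and 999 counts) and at 74.8 and 29.3 CPM in GFP-NEG (482 and 267 counts). The groups overlapped, with the highest and the lowest value both in GFP-NEG. Its log2 fold change was -0.39 (SE 0.51, adjusted p of 0.59, edgeR), from -1.33 within replicate 1 and 0.76 within replicate 2. Scaled by library totals alone, the difference within replicate 2 was 0.081, with a counting interval of -0.12 to 0.28. The fold change was 0.44 without GFP-NEG replicate 1 and -0.92 without GFP-NEG replicate 2.

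BPIFB1 had the widest gap between its differences in replicate 1 (-3.39) and replicate 2 (0.66) among the 8 genes. It was at 55.0 and 214 CPM in GFP-HI (1213 and 4319 counts) and at 575 and 136 CPM in GFP-NEG (3703 and 1240 counts). GFP-HI was 10.5-fold lower in replicate 1 and 1.58-fold higher in replicate 2, where the log2 difference was -0.023 when scaled by library totals alone. The log2 fold change was -1.40 (SE 0.65, adjusted p of 0.079, edgeR). Leaving out GFP-NEG replicate 1 gave -0.015, leaving out GFP-HI replicate 1 gave -0.68, and leaving out GFP-HI replicate 2 gave -2.68 (adjusted p of 0.99, 0.57 and 0.041). It passed under scaling by library totals alone (-1.77, adjusted p of 0.017) and under upper-quartile scaling (-1.64, adjusted p of 0.027).

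In count, edgeR called 0 of the 5 secretory genes, 2 were lower at an unadjusted p under 0.05 (SCGB3A2 and BPIFB1), 0 were higher, and DESeq2 called 0. Of all tested genes, 31.0% were lower and 11.9% higher at that unadjusted threshold.

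**Figure D3:**
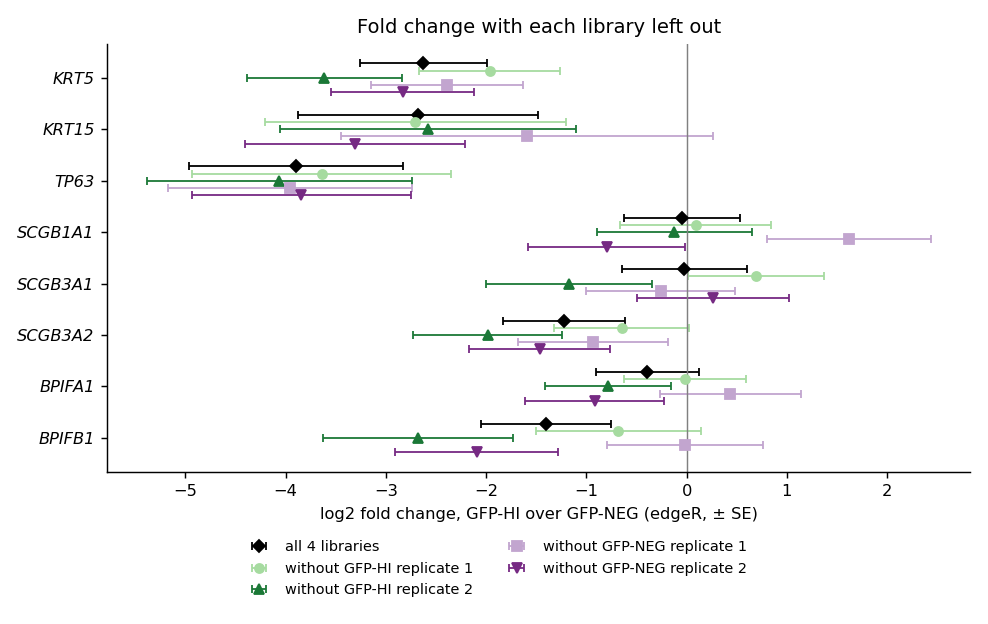
EdgeR log2 fold change (± SE), GFP-HI over GFP-NEG, of the 8 genes with all 4 libraries (black) and with each library left out (green and purple). TP63 stays between -4.06 and -3.64, whereas BPIFB1 ranges from -2.68 to -0.015 and SCGB1A1 from -0.80 to 1.62.

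Ratios between gene groups within a library need no scaling between libraries. For each library the counts of the basal genes were set against those of the secretory genes; gene length was not accounted for, so only the change of a ratio from library to library can be read. The 3 basal genes had 2.31 (95% interval 1.80 to 2.93) and 4.25 (3.59 to 5.01) counts per 100 secretoglobin counts in GFP-HI against 16.2 (14.2 to 18.4) and 42.5 (36.9 to 48.8) in GFP-NEG. Both GFP-HI libraries were below both GFP-NEG libraries, and within each group the ratio was higher in replicate 2. Against BPIFA1 and BPIFB1 together, the basal genes had 3.80 and 2.84 counts per 100 in GFP-HI against 6.76 and 19.4 in GFP-NEG. The basal genes were therefore a smaller part of the airway counts in GFP-HI in both replicates, whatever the scaling. With 2 libraries against 2, an exact two-sided permutation test of such a ratio cannot give a p below 0.333, and none was run.

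Ratios among the secretory genes also differed between libraries. BPIFA1 and BPIFB1 had 61.0 and 150 counts per 100 secretoglobin counts in GFP-HI against 239 and 219 in GFP-NEG. BPIFB1 had 185 and 432 counts per 100 BPIFA1 counts in GFP-HI against 768 and 464 in GFP-NEG, so its share was lowest in GFP-HI replicate 1. SCGB1A1 had 2430 counts per 100 SCGB3A1 counts in GFP-HI replicate 1 and 2360 in GFP-NEG replicate 1, against 767 and 308 in the libraries of replicate 2. That ratio was higher in both libraries of replicate 1. SCGB1A1 had 2610 and 1190 counts per 100 SCGB3A2 counts in GFP-HI against 1010 and 272 in GFP-NEG. KRT5 had 450 and 1050 counts per 100 TP63 counts in GFP-HI against 388 and 264 in GFP-NEG. Both ratios were higher in GFP-HI, but the KRT5 intervals overlapped in replicate 1 (224 to 1000 and 282 to 542).

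**Figure D4:**
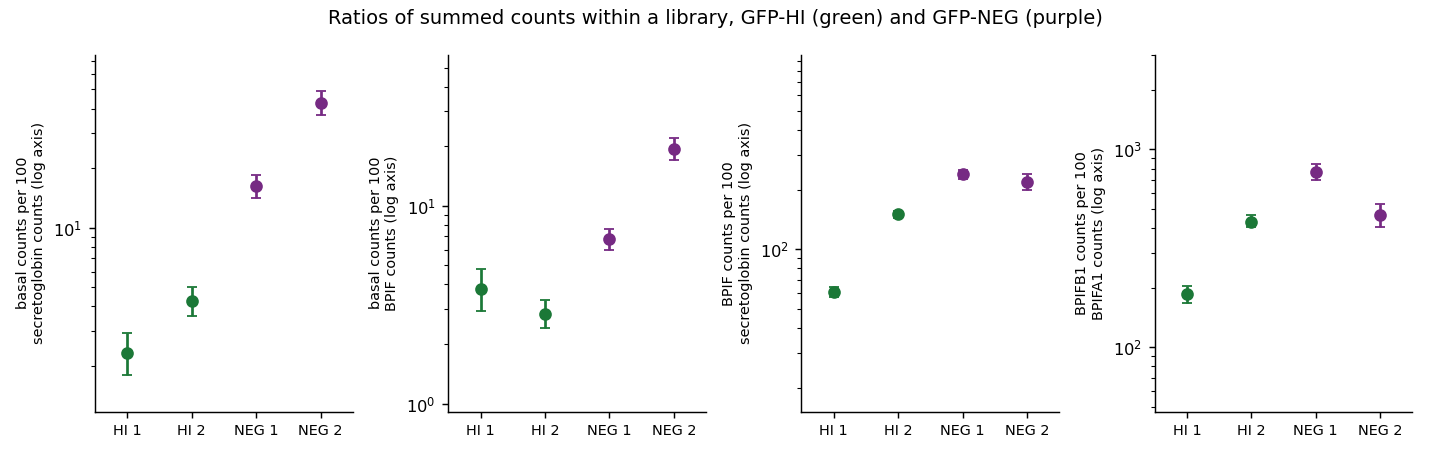
Ratios of counts within each library (log axis) with exact binomial 95% intervals for counting error only: basal per 100 secretoglobin counts, basal per 100 BPIFA1 and BPIFB1 counts (labelled BPIF), BPIF per 100 secretoglobin counts, and BPIFB1 per 100 BPIFA1 counts. GFP-HI libraries (green) are below GFP-NEG libraries (purple) in every panel, with 4.25 against 16.2 as the nearest pair in the first, although the intervals of 432 and 464 in the last overlap.

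Further basal cell genes were read from a list. Of its 16 genes, 14 were matched to a row and 13 were tested. Of these 4 passed, each lower in GFP-HI, beside 27.6% of all tested genes called lower. The list median was -0.95. The lower calls numbered 3 if GFP-NEG replicate 2 was left out and 2 if any other library was. SNAI2, a transcription factor also made by mesenchymal cells, was at 1.34 (adjusted p of 0.13, edgeR) and passed as higher in GFP-HI with the replicate as a block (1.70, adjusted p of 0.034) and without GFP-NEG replicate 1 (2.99, 0.011). The list median was -0.40 without GFP-NEG replicate 1, and -1.57 when GFP-HI replicate 1 was left out. KRT14, the partner keratin of KRT5, was at 6.84 and 1.98 CPM in GFP-HI against 42.7 and 13.5 CPM in GFP-NEG (log2 fold change -2.66, adjusted p of 1.6e-04, edgeR). Its call was lost without GFP-HI replicate 2 (-2.02, adjusted p of 0.051) and without GFP-NEG replicate 1 (-1.61, adjusted p of 0.13). ITGA6, an integrin subunit that anchors basal cells and is also made by endothelium, was at 1.36 and 1.98 CPM against 16.6 and 12.1 CPM (-3.09, adjusted p of 5.4e-04), and passed without any 1 library.

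DAPL1, a gene of basal and early differentiating cells, counted 0 and 17 in GFP-HI against 29 and 80 in GFP-NEG (adjusted p of 0.0026, edgeR). It did not pass without GFP-HI replicate 1 (adjusted p of 0.10) or without GFP-NEG replicate 2 (0.11). ITGB4, the integrin partner of ITGA6, was named after its values were seen, to complete the 4 calls. Its log2 fold change was -1.96 (adjusted p of 0.042, edgeR). Among the fits with 1 library left out, ITGB4 kept its call only without GFP-NEG replicate 2. It also passed with the edgeR replicate block, in DESeq2 and in edgeR with library totals alone (adjusted p of 0.032, 0.030 and 0.030). Of the list genes that did not pass, AQP3, IL33 and BCAM were the most abundant, with log2 fold changes of -0.10, -0.043 and -0.95. NGFR, the basal surface marker of the sorting protocol, counted 7 and 2 in GFP-HI against 6 and 0 in GFP-NEG and was not tested; the 0 allows up to 0.329 CPM (3 counts).

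Among 23 further secretory and goblet cell genes, 16 were matched and 11 tested, with a list median of -0.92. Of these 1 passed as higher and 3 as lower in GFP-HI, beside 8.35% and 27.6% of all tested genes. Lower calls numbered 4 if GFP-HI replicate 2 was left out and 1 if any other library was. The list median was -0.025 without GFP-HI replicate 1, -0.12 without GFP-NEG replicate 1, -0.55 without GFP-NEG replicate 2, and -1.31 when GFP-HI replicate 2 was left out. ALDH1A1, a retinal-oxidising enzyme that is made by club cells and also by mesenchymal cells, rose: it was at 115 and 160 CPM in GFP-HI against 41.0 and 12.2 CPM in GFP-NEG (2.38, adjusted p of 1.9e-04, edgeR). Without GFP-NEG replicate 2 it was at 1.75 (adjusted p of 0.19). PIGR, which carries immunoglobulin A across the epithelium, fell from 83.5 and 25.3 CPM in GFP-NEG to 9.20 and 18.7 CPM in GFP-HI (-1.96, adjusted p of 0.0012), and was at -0.86 (adjusted p of 0.39) without GFP-NEG replicate 1 and at -1.48 (0.11) when GFP-HI replicate 1 was left out.

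The goblet cell transcription factor SPDEF counted 2 and 6 in GFP-HI against 7 and 30 in GFP-NEG. GABRP, a GABA receptor subunit of airway epithelium, had 6 and 1 against 6 and 51. Their adjusted p-values (edgeR) were 0.030 and 0.0086, and 0.11 and 0.067 with the replicate as a block, so neither call held under the block. CLCA1, a secreted goblet cell protein, passed as lower under the block (-2.20, adjusted p of 0.048) but not without it (-1.55, 0.13). Without GFP-NEG replicate 2 SPDEF and GABRP did not pass either, at log2 fold changes of -2.45 and -2.47. SPDEF also missed the threshold without GFP-HI replicate 1 (-2.77) and GFP-NEG replicate 1 (-4.04), and GABRP without GFP-HI replicate 2 (-3.50). XBP1, a regulator of the secretory pathway in many cell types, SLPI, an antiprotease, and WFDC2 were the most abundant genes that did not pass. Their log2 fold changes were 1.14, -0.92 and -0.28. XBP1 was at 502.5 and 382.5 CPM in GFP-HI against 270.5 and 131.2 CPM in GFP-NEG. It passed as higher in DESeq2 with the replicate block (1.18, adjusted p of 0.040).

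Of the 4 tested submucosal gland genes, 2 passed as lower in GFP-HI, beside 27.6% of all tested genes, with a list median of -2.08. That median was -0.66 without GFP-NEG replicate 1, and -4.27 when GFP-HI replicate 1 was left out. LTF, lactoferrin, was at 2.58 and 1.78 CPM in GFP-HI against 43.6 and 52.0 CPM in GFP-NEG (-4.45, adjusted p of 2.7e-10, edgeR). TCN1, a vitamin B12 binder, had 47 and 2 counts against 187 and 27 (adjusted p of 4.5e-05), and was at -1.40 (adjusted p of 0.54) without GFP-NEG replicate 1, at -2.89 (0.055) when GFP-HI replicate 2 was left out and at -7.14 (0.0072) when GFP-HI replicate 1 was. Both are also granule proteins of neutrophils. Lysozyme, LYZ, did not pass (-0.020).

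All 9 tested general epithelial genes had a negative log2 fold change, with a median of -1.69. Of them 3 passed as lower in GFP-HI, beside 27.6% of all tested genes. CLDN4, a tight junction protein, was at 8.74 and 4.81 CPM against 29.5 and 29.6 CPM (-2.12, adjusted p of 0.0015, edgeR; 0.051 without GFP-HI replicate 2). CDH1, the epithelial cadherin, and ST14, a membrane protease, fell as well (-1.69 and -1.96), but neither passed without GFP-HI replicate 2 (adjusted p of 0.25 and 0.13), GFP-NEG replicate 1 (0.12 and 0.065) or GFP-NEG replicate 2 (0.053 and 0.051). EPCAM counted 45 and 33 in GFP-HI against 36 and 35 in GFP-NEG (-1.35, adjusted p of 0.34). Among 8 tested airway transcription factors 1 passed, beside 8.35% of all tested genes called higher. It was HES1, a Notch target also made outside epithelium, which rose (2.23, adjusted p of 4.1e-04, edgeR). Without GFP-NEG replicate 2 HES1 was at 1.77 and did not pass. The list median was -1.05, and 6 of the 7 genes not called had negative values. NKX2-1 and FOXA2 were at -0.77 and -1.04, and at -5.77 and -4.46 without GFP-HI replicate 1. ELF3 and EHF, which act in secretory and barrier epithelium, did not pass (-1.26 and -1.06). NOTCH3, a Notch receptor also made by mesenchymal cells, was at 1.20 (adjusted p of 0.059) and passed as higher under the block (1.33, 0.041).

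Beside these, the summed level of the immune list ran from 176 to 236 CPM in GFP-HI and from 1450 to 2040 CPM in GFP-NEG, and that of the endothelial list from 174 to 175 and from 543 to 1280 CPM. The fibroblast list ran from 71300 to 81100 CPM in GFP-HI and from 9000 to 25200 CPM in GFP-NEG. Their part in the difference of KRT5 and TP63 was not tested. The alveolar type 2 list, another epithelial class, ran from 139 to 283 CPM in GFP-HI and from 196 to 460 CPM in GFP-NEG, and 3 of its 7 tested genes passed as lower (1 if replicate 1 of either fraction is left out, and 2 if GFP-HI replicate 2 is). Of all tested genes, 27.6% passed as lower and 8.35% as higher. Of 8 tested ciliated cell genes 1 passed, TPPP3 (2.07, adjusted p of 0.0026, edgeR). Of 7 tested alveolar type 1 genes 2 passed, PDPN (2.33) and EMP2 (1.75), and like TPPP3 they were higher in GFP-HI. The list medians were 0.26 and -0.13. Of the genes not called, 3 of 7 ciliated and 4 of 5 alveolar type 1 genes had negative values. FOXJ1 (-1.45) and AGER (-0.13) were among them. With GFP-NEG replicate 2 left out, TPPP3, PDPN and EMP2 did not pass (adjusted p of 0.24, 0.12 and 0.59). EMP2 also missed the threshold without GFP-HI replicate 1 (0.18), without GFP-HI replicate 2 (0.098), in DESeq2 (0.051) and with library totals alone (0.064).

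**Figure D5:**
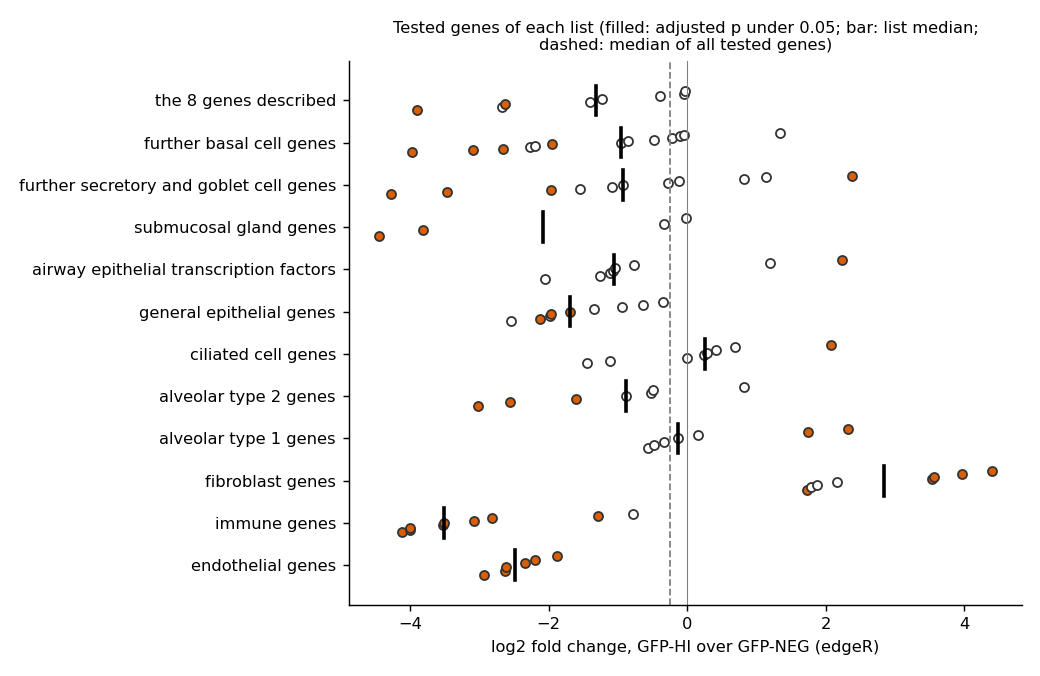
EdgeR log2 fold change, GFP-HI over GFP-NEG, of every tested gene of each list (points, filled where the adjusted p is under 0.05), with each list's median (black bar) and the median of all tested genes (dashed line, -0.25). With all 4 libraries the 8 airway genes have a median of -1.31, between the fibroblast list at 2.85 (4.82 without GFP-NEG replicate 1) and the immune list at -3.51.

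The genes whose pattern over the 4 libraries was most like that of KRT5, by Euclidean distance of centred log2(CPM + 0.5) among 9245 genes with a symbol and a mean of at least 10 CPM, were RGS2 (0.234), ADAM28 (0.314), CASP1 (0.349), LAT2 (0.358) and TEK (0.359). For BPIFB1, the secretory gene with the highest mean CPM, they were ITM2A (0.672), RXRG (0.673), PIGR (0.838), ECSCR (0.849) and RASL11A (0.852). TEK is also in the endothelial list, and PIGR in the secretory list. A like pattern over 4 libraries does not place genes in the same cells.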

How the data were processed

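The authors deposited whole-number counts per gene for each of the 4 libraries, which were used as they stand. Per the submitters' processing notes, featureCounts, Subread 1.5.2 and DESeq2 1.37.6 were used; aligner, genome build and strand setting are not given in the sources used here, and members of gene families that share reads are uncertain. The deposited comparison table adds the authors' log2 fold change, p-value and adjusted p-value. Its 4 columns of normalized values were not used, since the values under 2 headings are multiples of a different library's counts.

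Identifiers were replaced by symbols from the gene name table for 834 genes. Counts were tested with edgeR 4.0.16 (quasi-likelihood F test, TMM, filterByExpr, group as the only term; R 4.3.3) over 19682 genes, with Benjamini-Hochberg adjustment and a threshold of 0.05. The standard error is the fold change divided by the square root of F, and intervals of fold changes are 95% normal intervals. The spread was moderated fully toward the trend, so single genes' replicate scatter hardly entered the test. Intervals of counts and count ratios (exact Poisson or exact binomial, 95%) cover counting error only. The procedure was tested on simulated data. Alternatives were other scalings and filters, DESeq2 1.42.0, the replicate block and leaving out each library, where the lone library is assumed to vary like the other group.

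The replicate number was taken to pair libraries of one animal, because headings of the comparison table number the pigs 1 and 2. The pairing, and with it each within-replicate difference, rests on those headings and on the shared replicate number, and 2 of these 4 headings are the mismatched ones above. The deviations of same-numbered libraries from their group means correlated across genes with an r of 0.18. The titles call the replicates biological. The genes named from the lists are up to 3 called genes of largest change in each direction and up to 3 of the most abundant uncalled ones. The genes and lists were chosen with earlier results of these data known.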

Additional observations from a re-analysis of the deposited data

How the results depend on the processing

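KRT5 and TP63 kept their direction and their call under all 12 alternatives. The number of airway genes called was 4 under upper-quartile scaling and 4 with library totals alone, against 2, and it lay between 2 and 3 with 1 library removed. Over all genes, 1083 and 888 were called higher under these scalings, against 1643, and the median log2 fold change moved to -0.58 and -0.68. With 1 library removed, higher genes lay between 204 and 1539 and lower genes between 1373 and 4680, both lowest without GFP-NEG replicate 2, and DESeq2 with the replicate block called 3153 lower, against 5433. The edgeR replicate block changed no call of the 8 genes; it reversed SCGB1A1 (0.41), as did the DESeq2 replicate block (0.37). Near-zero values also reversed for SCGB3A1 with no filter on low counts (0.036). With libraries left out, SCGB1A1 ranged from -0.80 to 1.62, SCGB3A1 from -1.17 to 0.70 and BPIFA1 from -0.92 to 0.44. The cause was not tested. KRT15 and TP63 rest on 10 to 75 counts a library, which limits their precision.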

Other observations

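Some epithelial genes differed more between the GFP-HI libraries than between the sorted fractions. They were chosen after their values were seen. NKX2-1, a transcription factor of lung epithelium, had 86 counts in GFP-HI replicate 1 and 1 in GFP-HI replicate 2, and FOXA2, another epithelial factor, had 28 and 1, at nearly equal library totals. AQP5, a water channel of gland and alveolar type 1 cells, had 156 and 6. The goblet cell gene AGR2 ran the other way, with 1 count in GFP-HI replicate 1 and 76 in GFP-HI replicate 2, as did CLCA1 with 11 and 120. In the GFP-NEG libraries NKX2-1 had 34 and 14 counts, FOXA2 7 and 15, AQP5 56 and 7, AGR2 16 and 51, and CLCA1 82 and 56.

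KRT5 had 100 and 382 counts per 100 EPCAM counts in GFP-HI, against 528 and 566 in GFP-NEG. The interval of GFP-HI replicate 2 (259 to 579) overlapped those of both GFP-NEG libraries (368 to 776 and 393 to 835). SCGB1A1 had 6320 and 8860 counts per 100 EPCAM counts in GFP-HI, against 4250 and 1160 in GFP-NEG, higher in both GFP-HI libraries. In replicate 1 the intervals overlapped, at 4710 to 8680 in GFP-HI and 3060 to 6100 in GFP-NEG. EPCAM had at most 45 counts in any library, so these ratios have wide counting intervals (SCGB1A1 in GFP-HI replicate 2, 6290 to 12900).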
